A study of Bos taurus with 11 samples.

Results

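The genes described here build and load the major histocompatibility complex (MHC) class I molecule: the light chain B2M, the heavy chains BOLA, BOLA-NC1 and JSP.1, the peptide transporter subunits TAP1 and TAP2, the loading factor TAPBP, the immunoproteasome subunits PSMB8 and PSMB9, and the class I transactivator NLRC5. They were taken by name: every non-control probe whose gene name in the scanner files was one of these 10 names among the 25426 names of genes or transcripts on the array, which gave 33 of 43653 probes. Endometrium was biopsied on day 7 of the oestrous cycle in Bos taurus cows, and each cow was hybridised to 1 array read in 1 colour (the dye Cy3). The 6 fertile cows had conceived within 3 inseminations or embryo transfers and conceived again at the transfer that followed the biopsy. The 5 subfertile cows had failed 3 times in a row although no abnormality of the genital tract was found and their cycles appeared normal. The labels name no treatment and no allele, and age and breed are not given in the sources used here. The comparison asks how transcript signal in the endometrium differs between the groups. A biopsy holds epithelium, stroma, vessels and leukocytes together, so fewer cells of a type and less RNA per cell cannot be told apart. EPCAM, KRT8, KRT18, VIM, HOXA10, PGR and ESR1, taken as defining markers of endometrial epithelium and stroma, were well above background on all 11 arrays.

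Nearly every nucleated cell shows peptides from its own proteins on MHC class I. The proteasome cuts the proteins, TAP1 and TAP2 pump the peptides into the endoplasmic reticulum, tapasin (TAPBP) holds the empty heavy chain at the transporter, and the loaded heavy chain travels to the surface with B2M. Interferon raises most of these genes together, in part through NLRC5, and in the ruminant uterus class I is known as a set of genes that the early pregnancy signal interferon tau acts on. Cattle carry a number of class I heavy-chain genes that differs from haplotype to haplotype, and each gene has many alleles.

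Some heavy-chain probes share stretches of sequence with each other and others do not. The shared bases are shown because the results turn on which cows each probe reads. A stretch of 30 bases near the 3′ end was aligned between the probe of BOLA that starts at base 1327 of its mRNA, the probe of BOLA-NC1 that starts at base 1210 and the probe of JSP.1 that starts at base 1316. The array annotation, on build Btau_3.1, places these whole probes on the minus strand at chr23:28655800-28655859, chr23:28483940-28483999 and chr23:28598893-28598952. Capitals mark bases that differ from BOLA.
BOLA: ctttgcttcatatgcactgagtaatgatgt
BOLA-NC1: ctttgcttcatatgcactgagtaatgatgt
JSP.1: ctttgcttTatatAcactgaAtaatgatAt
BOLA and BOLA-NC1 were identical here, while JSP.1 differed from BOLA at 4 positions counted from the 5′ end of the stretch: C9T, G14A, G21A and G29A. Outside the stretch the BOLA and BOLA-NC1 probes did differ: over their whole overlap they shared 43 of 49 aligned bases, with 6 mismatches. The stretch was chosen inside longer overlaps, and matches over the whole overlap of the JSP.1 and BOLA probes are not given here. The annotation of this JSP.1 probe also lists the transcripts of BOLA-N, another class I gene, and of LOC100125916, a gene annotated only as a hypothetical protein, so its signal cannot be assigned to JSP.1 alone.

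The second JSP.1 probe that set cows apart starts at base 981, and its 60 bases map over 622 bases of the genome at chr23:28599390-28600011 (Btau_3.1, minus strand). LOC100125916 carries 2 probes that overlap it and whose annotation lists the JSP.1 transcript as well, and these are shown because they followed the same cows. Capitals mark bases that differ from JSP.1 within the overlap.
JSP.1, base 981: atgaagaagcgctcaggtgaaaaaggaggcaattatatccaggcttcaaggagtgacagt
LOC100125916, base 1001: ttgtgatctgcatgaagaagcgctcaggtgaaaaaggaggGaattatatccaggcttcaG
LOC100125916, base 1014: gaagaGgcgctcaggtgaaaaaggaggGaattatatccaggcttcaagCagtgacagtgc
The first shared 47 of 49 aligned bases with JSP.1 and the second 55 of 58.

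The remaining JSP.1 probe starts at base 485 and shares no such stretch with these; it is shown because it ran apart from the other JSP.1 probes.
JSP.1, base 485: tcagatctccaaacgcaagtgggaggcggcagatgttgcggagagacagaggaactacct

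Values are log2 processed signals of the scanner, each with the 75th percentile of its own array subtracted, so that 0 is the 75th percentile. They are called levels on the log2 scale below, and a difference is the subfertile mean minus the fertile mean. Levels are not compared between probes, since probes differ in how well they bind. The processed signal was weaker on the subfertile arrays: the median over probes was 161 to 452 on fertile and 54.3 to 92.7 on subfertile arrays. Between 72.0% and 77.4% of probes were well above background in fertile cows and between 64.4% and 74.1% in subfertile cows. The 10 arrays with known headers lay on 6 slides scanned on 4 days, and no slide and no day held both groups, so slide, scan day and fertility group cannot be told apart.

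The heavy chains set individual cows apart far more than they set the groups apart. JSP.1 at base 1316 was at a high level in most cows of both groups and very low in 3 cows. BOLA and BOLA-NC1 were low in a single subfertile cow at some of their probes. The test between the groups called 0 of the 11 heavy-chain probes (limma, adjusted p below 0.05), where 22.2% of all 31877 tested probes were called. At an unadjusted p below 0.05 there was 1 of the 11, and the share of all probes at that level was not counted. The standard deviation within groups had a median of 1.20 on the log2 scale over these 11 probes, against 0.31 over the 19 other tested probes of the class I pathway genes and 0.28 over all 31877 tested probes.

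JSP.1 at base 1316 had a level on the log2 scale of -5.84 in fertile cow 3, a fertile median of 6.09 and a highest fertile value of 6.53. The subfertile levels at this probe were 7.10, 5.22, -4.62, 7.31 and -5.39 in cows 1 to 5. Fertile cow 3 and subfertile cows 3 and 5 were low, the other 8 cows lay between 4.70 and 7.31, and the groups overlapped. No other tested probe had a larger standard deviation within groups (5.59). The difference between the groups was -2.07 ± 2.97 (SE) on the log2 scale (limma, adjusted p = 0.649). The probe was well above background in 6 of 6 fertile and 4 of 5 subfertile cows, so 2 of the 3 low cows still had signal above background.

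The JSP.1 probe at base 981 named the same 3 low cows. Its fertile levels ran from -8.07 in cow 3 over a median of -0.50 to 1.48 on the log2 scale. Its subfertile levels were 1.60, 0.10, -6.43, 2.24 and -6.37. The probe was well above background in 5 of 6 fertile and 3 of 5 subfertile cows. Its lowest values therefore lie near background, so the depth of the fall and the spread within groups are not measured well. It ranked 5 among all tested probes by standard deviation within groups, and its difference between the groups was -0.06 ± 2.05 (SE; limma, adjusted p = 0.986). Over the 8 cows that were not low, the Pearson correlation between these JSP.1 probes, after the mean of each group was taken out, was 0.82, given as a description of arrays that share their labelling and overall brightness.

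JSP.1 at base 485, upstream on the same reference transcript, did not follow them. Its fertile levels ran from -3.11 over a median of -1.73 to -0.38 on the log2 scale, with cow 3, low at the other probes, at the top. Its subfertile levels were -2.38, -0.21, 0.46, 1.04 and 1.12, with cows 3 and 5 among the 3 highest. The difference was 1.73 ± 0.64 (SE; limma, adjusted p = 0.0741), and 4 of 5 subfertile cows lay above the highest fertile cow. Without subfertile cow 1 the difference was 2.33 (adjusted p = 0.0106), and with all cows and normexp background correction it was 1.66 (adjusted p = 0.0194), so both the cow and the processing bear on the call. Within the fertile group the mean of slide 2 minus that of slide 1 was -2.06 at this probe, with 2 cows on each. That gap is larger in size than the difference between the groups.

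Related probes outside the 10 names marked the same 3 cows. LOC100125916 at base 1001 was at -5.93 in fertile cow 3 and between -1.69 and 1.41 in the other fertile cows. Its subfertile levels on the log2 scale were 3.16, 0.38, -5.78, 3.1 and -4.63, low again in cows 3 and 5. The probe of LOC100125916 at base 1014 had subfertile levels of 2.28, 2.26, -1.02, 3.27 and -0.28, and -1.19 in fertile cow 3, a narrower range with the same cows lowest. A probe of BOLA-N shares 31 of 33 aligned bases with the JSP.1 probe at base 1316. Its level was -8.76 in fertile cow 3, -8.00 in subfertile cow 3 and -7.55 in subfertile cow 5, and it was also low in fertile cow 1, at -6.81. The BOLA-N probe was well above background in 4 of 6 fertile and 3 of 5 subfertile cows, so these values lie near background. Genes outside the class I family were also low in these cows. RASSF7 (r = 0.96), dim in every cow, was at -6.92, -6.16 and -6.30 in fertile cow 3 and subfertile cows 3 and 5. In the others RASSF7 was between -6.10 and -5.35. MANSC1 (0.96) was at -3.02, -2.23 and -2.54 and between -1.87 and -0.75, and CNNM4 (0.93) at -2.34, -2.18 and -2.24 and between -2.01 and -1.69. Over the 8 other cows the correlation with JSP.1 base 1316 was 0.95 and 0.75 for the LOC100125916 probes, 0.71 for RASSF7, 0.27 for MANSC1 and 0.16 for CNNM4. All of these were picked for their likeness to JSP.1 after values were seen, so it is a description.

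**Figure D1:**
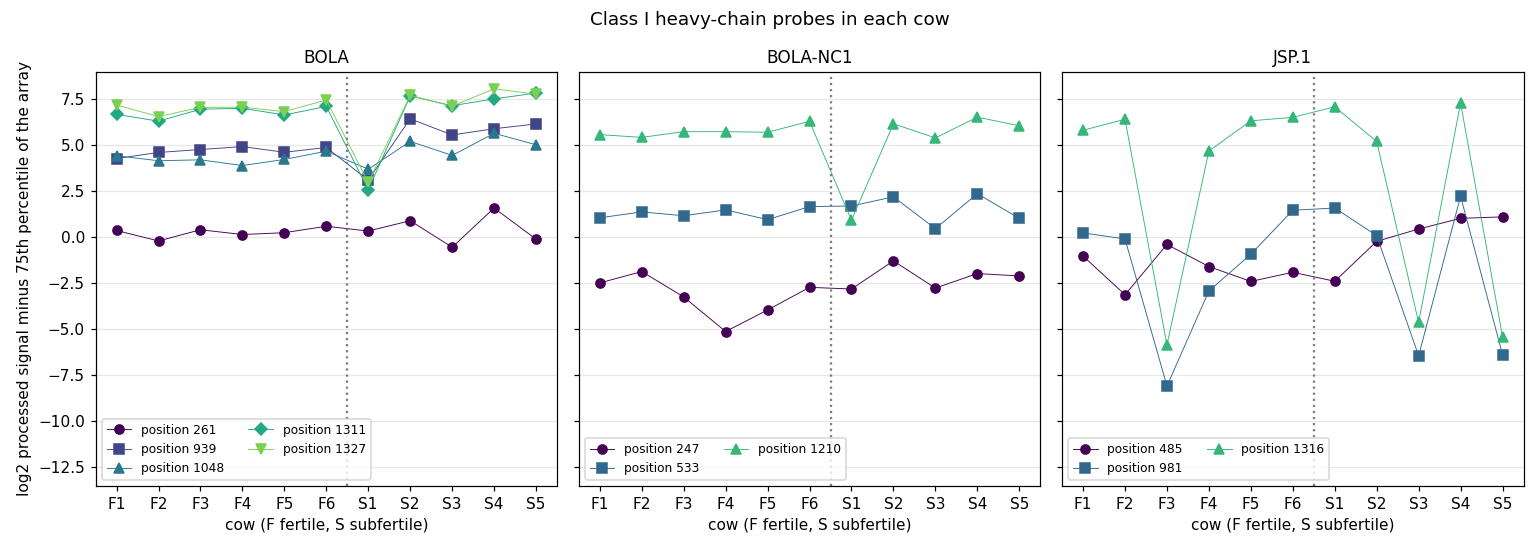
Levels of the heavy-chain probes in each cow. The vertical axis is the log2 processed signal minus the 75th percentile of the array, the horizontal axis lists the 6 fertile (F) and 5 subfertile (S) cows, each symbol is 1 probe named by its first base in the mRNA, and lines only join the symbols of a probe. The JSP.1 probes at bases 981 and 1316 drop in F3, S3 and S5, and probes of BOLA and BOLA-NC1 drop in S1.

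BOLA, named for the bovine class I heavy chain, was far above the 75th percentile of the array at its 3′ probes in 10 of 11 cows and lower in subfertile cow 1. At base 1327 the fertile levels ran from 6.57 over a median of 7.07 to 7.47 on the log2 scale. The subfertile levels at base 1327 were 2.99, 7.72, 7.13, 8.08 and 7.79. Cow 1 lay below every fertile cow, and 3 of the other 4 lay above every fertile cow. At base 1311, an overlapping probe that shares 43 of 44 aligned bases, the subfertile levels were 2.59, 7.69, 7.16, 7.53 and 7.85 against 6.32 to 7.12 in fertile cows. The differences were -0.30 ± 0.77 and -0.23 ± 0.81 (SE; limma, adjusted p = 0.810 and 0.862) and changed sign without subfertile cow 1, to 0.64 (adjusted p = 0.0545) and 0.76 (adjusted p = 0.0192).

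The other BOLA probes were mixed in cow 1. At base 939, a probe named for another transcript variant than the 3′ ones and annotated to LOC790811 as well, the subfertile levels were 3.12, 6.45, 5.57, 5.91 and 6.17 on the log2 scale against 4.29 to 4.94 in fertile cows. Cow 1 was again below and the other 4 above every fertile cow; the difference was 0.75 ± 0.49 (adjusted p = 0.290) with cow 1 and 1.34 (adjusted p = 0.00193) without it. At base 1048 the subfertile levels were 3.71, 5.22, 4.46, 5.66 and 5.04, with a difference of 0.54 (limma, adjusted p = 0.209), or 0.82 without cow 1 (adjusted p = 0.0285). At base 261, named for the same variant as base 939, cow 1 was not low: the subfertile levels were 0.35, 0.91, -0.53, 1.60 and -0.09, and the difference was 0.18 (adjusted p = 0.726). The direction of BOLA between the groups therefore depended on the probe and on a single cow.

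BOLA-NC1, annotated as a non-classical class I heavy chain, showed the same cow at 1 of its 3 probes. At base 1210, which carries the 30 bases identical to BOLA, the fertile levels ran from 5.44 over a median of 5.74 to 6.31 on the log2 scale. The subfertile levels at base 1210 were 0.94, 6.18, 5.41, 6.54 and 6.07, so cow 1 stood alone. The difference was -0.73 ± 0.84 (SE; limma, adjusted p = 0.557), and 0.29 without cow 1 (adjusted p = 0.382). At base 533 cow 1 was at 1.71, inside the subfertile range of 0.48 to 2.38, and the difference was 0.26 (adjusted p = 0.578). At base 247 the fertile cows spread from -5.11 to -1.85 and the subfertile cows from -2.80 to -1.27, a difference of 1.05 ± 0.52 (adjusted p = 0.166), or 1.04 with normexp background correction (adjusted p = 0.0348).

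The low heavy-chain signal of subfertile cow 1 came with low signal at other genes, some of them of the MHC. Over the 11 arrays, after the mean of each group was taken out, BOLA at base 1327 had a Pearson correlation of 0.995 with BOLA-NC1 at base 1210, of 0.98 with a probe of the class I gene LOC790811, of 0.97 with BLA-DQB and of 0.96 with BOLA-DQA2, the last pair being chains of the class II molecules that show peptides to helper T cells. BLA-DQB, named as in the files, was at -8.38 in subfertile cow 1 and between 1.34 and 4.94 in the other 10 cows. BOLA-DQA2 was at -8.35 in that cow and between -0.05 and 1.80 in the others, and neither was well above background in subfertile cow 1. Without the 2 cows farthest from the median at the BOLA probe, the correlation was 0.87 with BOLA-NC1, 0.48 with LOC790811, 0.26 with BLA-DQB and -0.35 with BOLA-DQA2, so the relation to class II rests on those cows. Genes outside the MHC were as much alike over a far narrower range: TBCE, a tubulin chaperone (r = 0.955), was at -2.12 in subfertile cow 1 and between -1.78 and -1.34 in the others, and IPO11, a nuclear import receptor (r = 0.954), at 1.53 and between 1.76 and 2.28. Likeness by correlation is therefore not particular to MHC genes here. These genes too were picked after values were seen.

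**Figure D2:**
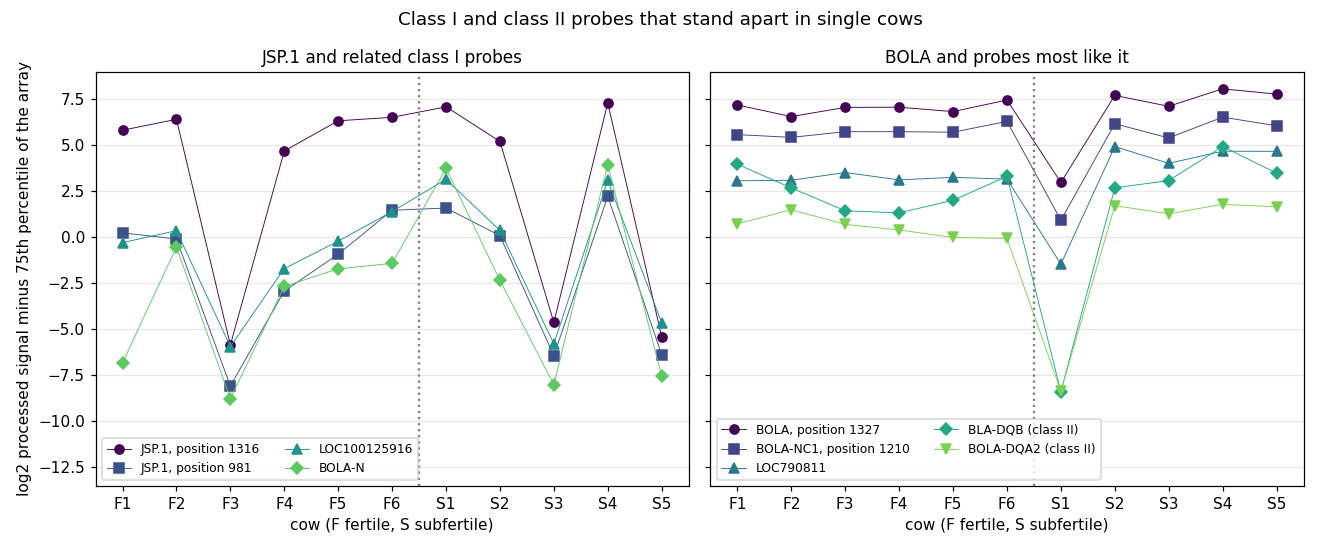
Levels of class I and class II probes that stand apart in single cows. Axes and cow names are those of the heavy-chain plot, the left panel holds JSP.1 with related class I probes (LOC100125916 by its probe at base 1001), and the right panel holds BOLA with the probes most like it. On the left F3, S3 and S5 are low at every probe shown, and on the right only S1 is low, at -8.38 for BLA-DQB.

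Subfertile cows 1 and 4 stood at the ends of the range at many of the tested probes, but not at every gene. Subfertile cow 1 had the lowest level of all 11 cows at 15 of the 30 tested probes, and subfertile cow 4 the highest at 16. At B2M base 533, which the count of 15 leaves out, subfertile cow 1 and the lowest fertile cow were both at 5.26. Over all 31877 tested probes subfertile cow 1 was the lowest at 9.11% and subfertile cow 4 the highest at 6.60%. The pathway's probes overlap in sequence, so these counts are not over independent probes. No other cow was lowest at more than 3 of the 30 or highest at more than 6. Subfertile cow 1 was not the lowest at any tested probe of JSP.1, TAP1, TAPBP or NLRC5. At JSP.1 base 1316 its level was 7.10, near the top. Among the heavy-chain probes the rank by standard deviation within groups ran from 1 to 4773 of 31877. Among the other tested probes of these genes it ran from 2581 to 24732, with TAPBP the most even.

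**Figure D3:**
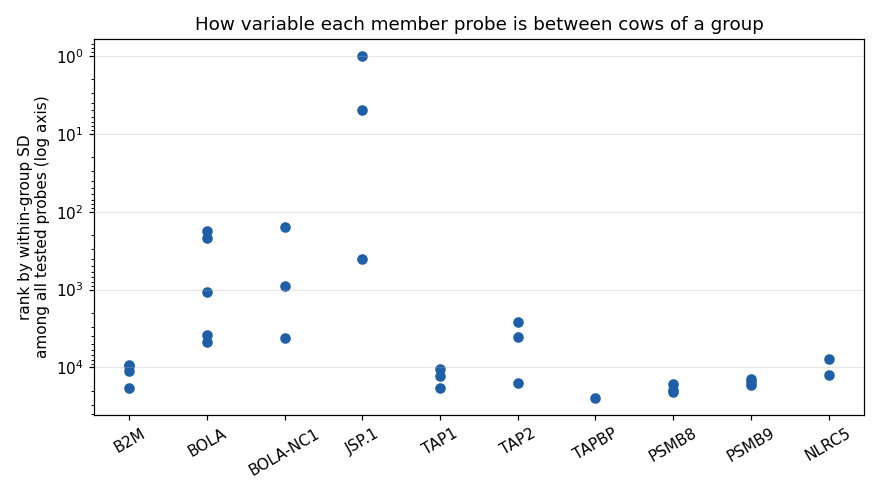
Rank of each tested probe by its standard deviation within groups among the 31877 tested probes. The vertical axis is the rank on a log axis with rank 1, the most variable, at the top, the horizontal axis lists the 10 genes, and each point is 1 probe. JSP.1 holds ranks 1 and 5, while TAPBP, PSMB8 and PSMB9 lie at rank 14057 or beyond.

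Between the groups, few probes of the class I pathway differed. Of the 33 probes 30 were tested, those well above background on at least 5 of 11 arrays, and 28 were well above background on all 11. The test called 4 of the 30 (limma, adjusted p below 0.05), 13.3%, where 22.2% of all 31877 tested probes were called. The 3 higher calls were B2M, TAP1 and NLRC5, 1 probe each, and the lower call was 1 probe of TAP2; over all probes 14.8% were called higher and 7.4% lower. In total 19 differences were above 0 and 11 below, with a median of 0.11 on the log2 scale against 0.07 over all tested probes. Levels of the groups were fully separate at 3 of the 30, where 13.5% of all tested probes were. Each of the 4 calls held on leaving out any single cow, and each was lost when the fit held scan day as a random effect (adjusted p = 0.115 to 0.178).

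**Figure D4:**
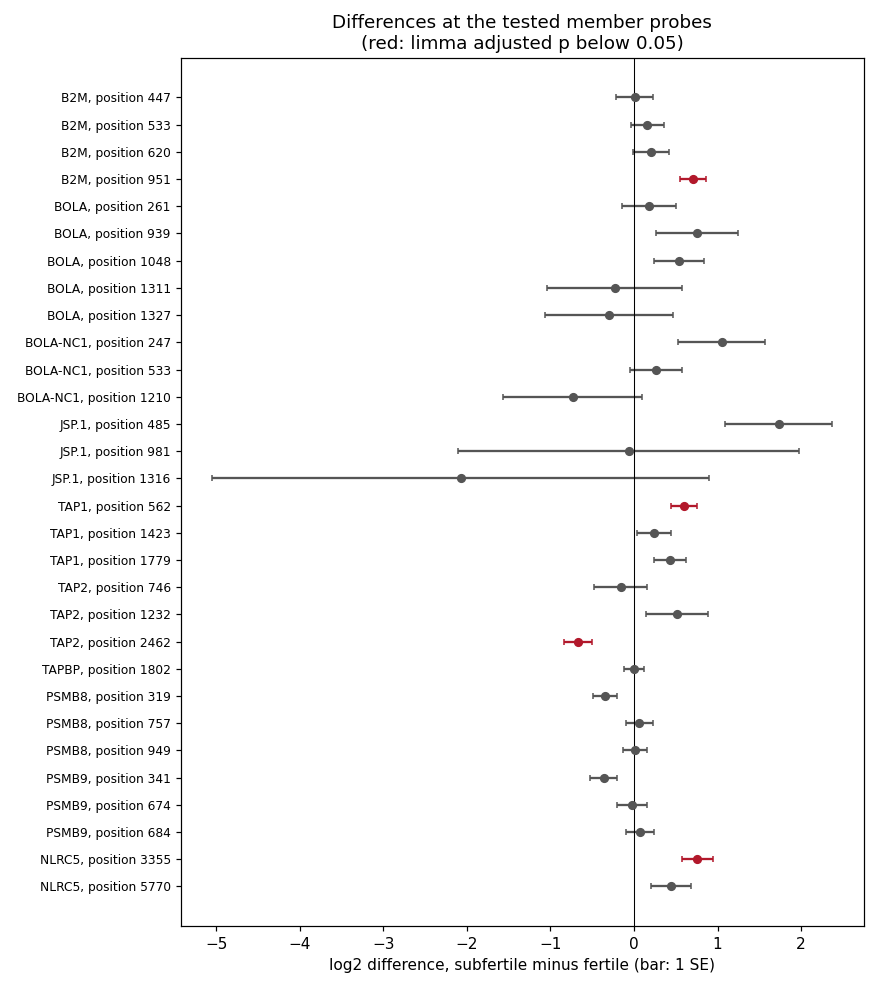
Differences between the groups at the 30 tested probes. The horizontal axis is the subfertile mean minus the fertile mean on the log2 scale with bars of 1 SE, each row is a probe named by its first base in the mRNA, and red marks an adjusted p below 0.05. The 4 red points are B2M at 0.70, TAP1 at 0.60, NLRC5 at 0.76 and TAP2 at -0.67, and the widest bars belong to JSP.1.

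B2M, the light chain that every class I molecule shares, rose at 1 of its 4 tested probes. At base 951 (chr10:106114776-106114835, Btau_3.1, plus strand), the probe nearest the 3′ end, the fertile levels ran from 5.97 over a median of 6.15 to 6.53 on the log2 scale. The subfertile levels there were 6.59, 6.73, 6.73, 7.05 and 7.36, all above the highest fertile cow. The difference was 0.70 ± 0.15 (SE), 1.63-fold (limma, adjusted p = 0.00867). With quantile normalization the difference at this probe was -0.03 (adjusted p = 0.869), so its direction depended on the scaling, and with slide as a random block the adjusted p was 0.0532.

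The other tested B2M probes, at bases 447, 533 and 620, had differences of 0.01, 0.16 and 0.21 on the log2 scale (limma, adjusted p = 0.983, 0.597 and 0.525). At base 447 the subfertile levels were 4.55, 5.16, 4.73, 5.63 and 5.44 against 4.80 to 5.66 in fertile cows, an overlap over most of the range. With quantile normalization all 4 differences were below 0. The 2 remaining B2M probes were made on a predicted B2M-like transcript and were dim: at base 409 the probe was well above background in 3 of 6 fertile and 0 of 5 subfertile cows, and at base 474 in 3 of 6 and 1 of 5, so neither was tested.

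TAP1, a subunit of the peptide transporter, had all 3 of its differences above 0, and 1 of them passed. At base 562 (chr23:7391834-7392322, Btau_3.1, minus strand) the fertile levels ran from -3.41 over a median of -3.30 to -2.78 on the log2 scale. The subfertile levels at base 562 were -2.57, -2.48, -2.95, -2.34 and -2.55. Cow 3 lay inside the fertile range and the other 4 above it, and the difference was 0.60 ± 0.15 (SE), 1.51-fold (limma, adjusted p = 0.0185). Within the fertile group the mean of slide 2 was 0.47 above that of slide 1 at this probe, with 2 cows on each. At bases 1423 and 1779 the differences were 0.24 and 0.43 (adjusted p = 0.434 and 0.118), or 0.52 and 0.46 with normexp background correction (adjusted p = 0.0178 and 0.0258).

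TAP2, the other transporter subunit, fell at 1 probe and did not pass at the other 2. At base 2462 (chr23:7345518-7345577, Btau_3.1, minus strand) the fertile levels ran from 1.86 over a median of 2.16 to 2.30 on the log2 scale. The subfertile levels at base 2462 were 0.81, 1.56, 1.80, 1.47 and 1.66, all below the lowest fertile cow. The difference was -0.67 ± 0.17 (SE), 1.59-fold lower (limma, adjusted p = 0.0162). That probe is named for another reference transcript than the probes at bases 746 and 1232, which map apart from it at chr23:7373427-7373486 and chr23:7370095-7372106. Those 2 probes had differences of -0.16 and 0.51 (adjusted p = 0.751 and 0.344), and the former was at 0.58 (adjusted p = 0.0292) with normexp background correction. TAP2 therefore had no single direction over its probes.

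TAPBP, or tapasin, was the most even of these genes. Its probe ran from -1.30 over a median of -0.98 to -0.82 in fertile cows on the log2 scale. Its subfertile levels were -1.0, -0.93, -1.09, -0.80 and -1.32. The ranges nearly coincided, and the difference was -0.0004 ± 0.12 (SE; limma, adjusted p = 0.999).

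PSMB8 and PSMB9, the catalytic subunits that replace the constitutive ones in the immunoproteasome, had no probe past the test. The PSMB8 probes at bases 319, 757 and 949 had differences of -0.35, 0.06 and 0.01 on the log2 scale (limma, adjusted p = 0.106, 0.813 and 0.955). Base 319 passed without fertile cow 6, at -0.42 (adjusted p = 0.0485). The PSMB9 probes at bases 341, 674 and 684, of which the last pair share 50 identical bases, had differences of -0.36, -0.02 and 0.07 (adjusted p = 0.124, 0.937 and 0.797). Subfertile cow 1 was the lowest cow at all 3 tested PSMB9 probes, at -1.76, 2.23 and 2.47. A further PSMB9 probe, at base 541 of a clone sequence, was not well above background in any cow and was not tested.

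NLRC5, the transactivator of class I promoters, rose at 1 of 2 probes. At base 3355 (chr18:24649791-24649850, Btau_3.1, plus strand) the fertile levels ran from -2.88 over a median of -2.27 to -1.86 on the log2 scale. The subfertile levels at base 3355 were -1.69, -1.49, -1.26, -1.47 and -1.75, all above the highest fertile cow. The difference was 0.76 ± 0.19 (SE), 1.69-fold (limma, adjusted p = 0.0162), while fertile slide 2 was 0.48 above slide 1, with 2 cows on each. At base 5770 the difference was 0.44 ± 0.24 (adjusted p = 0.204), and with normexp background correction 0.75 (adjusted p = 0.00117).

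**Figure D5:**
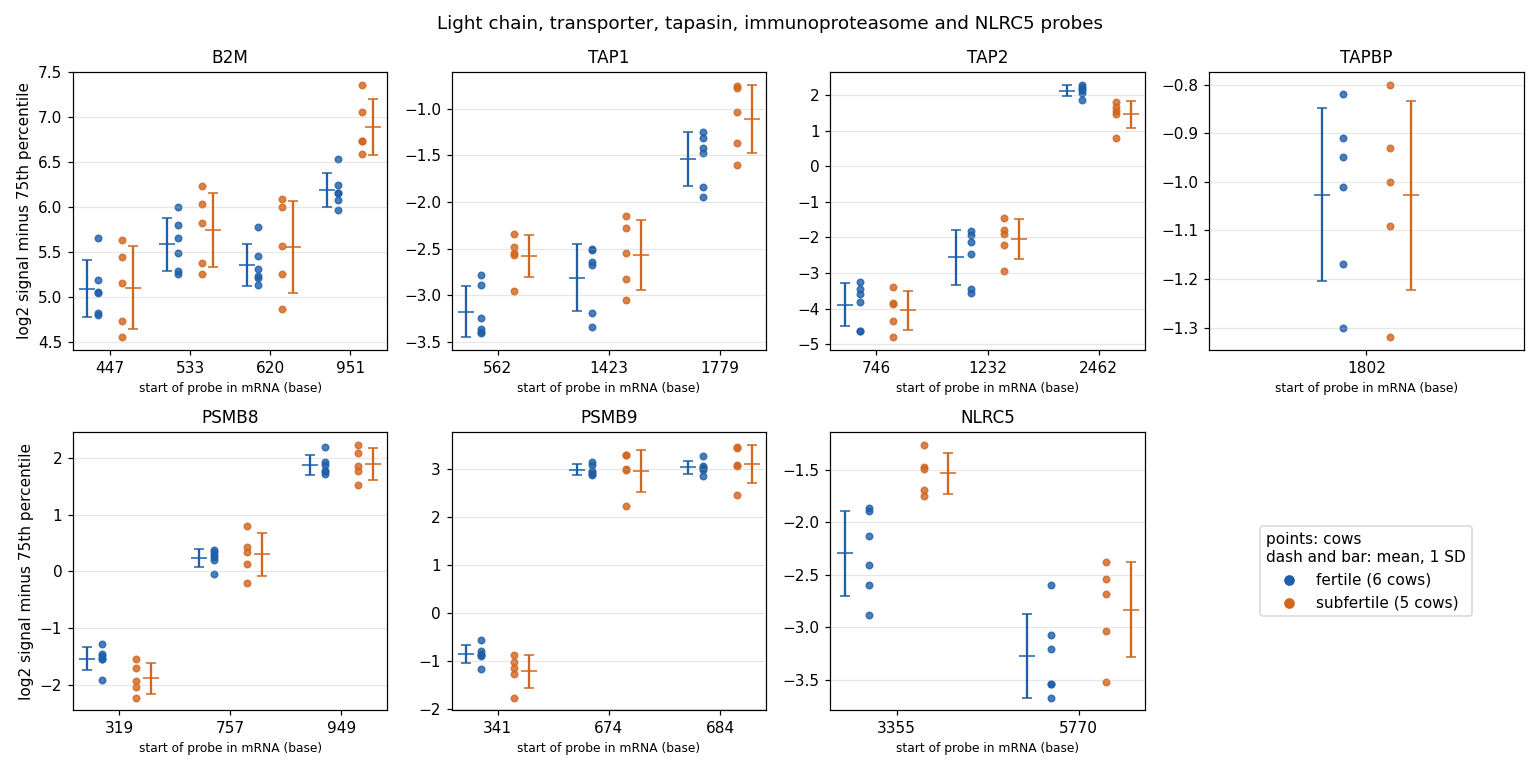
Levels of the tested B2M, TAP1, TAP2, TAPBP, PSMB8, PSMB9 and NLRC5 probes by group. The vertical axes are the log2 processed signal minus the 75th percentile of the array, each on its own range, the horizontal axes give the first base of each probe in the mRNA, points are cows (blue, 6 fertile; orange, 5 subfertile), and dashes with bars are means with 1 SD. The groups separate at B2M base 951, TAP2 base 2462 and NLRC5 base 3355 and overlap at the other probes.

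Differences within the same array between a pair of pathway genes, each by its brightest tested probe, were compared over all splits of the cows (exact two-sided permutation test, adjusted over the 5 pairs). TAP1 minus TAP2 rose from -3.67 ± 0.33 (SD, n = 6) to -2.57 ± 0.49 (SD, n = 5) on the log2 scale, by 1.1 (exact permutation p = 0.00649, adjusted p = 0.0325). B2M minus TAPBP rose by 0.70 (exact permutation p = 0.0152, adjusted p = 0.0379) and PSMB10 minus PSMB7, an immunoproteasome subunit against its constitutive counterpart, fell by 0.74 (p = 0.0238, adjusted p = 0.0397, exact). PSMB8 minus PSMB5 and PSMB9 minus PSMB6, the corresponding ratios of the other subunits, differed by -0.18 and -0.21 (exact permutation, adjusted p = 0.141 and 0.307), and the former passed without subfertile cow 4, at -0.24 (adjusted p = 0.0476, exact). With the mean of all tested probes of a gene in place of the brightest, TAP1 minus TAP2 was 0.53 (adjusted p = 0.0685), B2M minus TAPBP 0.27 (adjusted p = 0.325) and PSMB10 minus PSMB7 -0.49 (adjusted p = 0.0703), while PSMB9 minus PSMB6 passed at -0.92 (adjusted p = 0.0108). Without any 1 of fertile cows 1 to 5 or subfertile cow 5 the 3 calls were lost (exact, adjusted p = 0.0529 to 0.0794), with fewer splits to draw on, while the differences were 1.03 to 1.18 for TAP1 minus TAP2 and 0.51 to 0.74 for B2M minus TAPBP. The PSMB10 pair was also lost without subfertile cow 1, 2 or 3 (up to 0.0873, exact) and was at -0.78 to -0.57 over the 9 cows concerned.

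The wider class I pathway is described with 1 probe per gene, the brightest, for which 22.1% of 18504 genes were called, 14.2% higher and 7.91% lower in subfertile cows, with a median difference of 0.06 on the log2 scale. Of the 29 called genes that the naming rule takes from these lists and the cell markers, 26 were lost with scan day as a random block, all but IFNGR1, the B cell gene CD79A and the claudin CLDN3. Of 15 genes that load or trim class I peptides, 2 rose and 1 fell, with a median of 0.10. CALR, the chaperone calreticulin, rose by 0.77 ± 0.16 (SE; limma, adjusted p = 0.00796), although with quantile normalization its difference was 0.08 (adjusted p = 0.745). ERAP2, an aminopeptidase that trims peptides in the endoplasmic reticulum, rose by 0.72 ± 0.18 (adjusted p = 0.0171), and its relative ERAP1 was at -0.33 (adjusted p = 0.192), while the other ERAP1 probes were at -0.88 and -0.50 (adjusted p = 0.00425 and 0.134). TPP2, a cytosolic peptidase, fell by 0.37 (adjusted p = 0.0253), a call lost without subfertile cow 2, 3 or 5 (limma, adjusted p = 0.0513 to 0.0648), and TPP2 was at -0.011 under normexp correction of the background (adjusted p = 0.930).

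Of 5 tested genes of the immunoproteasome and its activator, 0 passed (limma), with a median of -0.02. PSMB10 was at -0.21 (limma, adjusted p = 0.489), PSME2, an activator subunit, at 0.26 (adjusted p = 0.0533; 0.30 and 0.0463 without fertile cow 1) and PSME4, another proteasome activator, at -0.19 (adjusted p = 0.187). The other 3 tested probes of PSME4 each passed, with differences of -0.33, -0.49 and -0.68 (adjusted p = 0.0288, 0.0252 and 0.0487), so the count of 0 holds for the brightest probes. Of the 3 constitutive counterparts, PSMB7 rose by 0.52 ± 0.11 (adjusted p = 0.00834; 0.26 with quantile normalization, adjusted p = 0.0560), while PSMB5 was at 0.20 (adjusted p = 0.141) and PSMB6 at 0.28 (adjusted p = 0.0718; 0.36 and 0.0226 without subfertile cow 3). The other PSMB6 probe rose by 1.35 (adjusted p = 2.43e-04), and the other PSMB7 probe was at 0.04 (limma, adjusted p = 0.777).

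Of 20 tested transcriptional regulators of class I genes, 3 rose and 4 fell, with a median of -0.07. EZH2, the histone methyltransferase that lays down a repressive mark, fell by 1.03 on the log2 scale (limma, adjusted p = 0.00801) and by 0.52 with normexp background correction (adjusted p = 0.0338). NFKB1 fell by 0.59 (adjusted p = 0.0123) while RELA, the partner of its product in NF-kB, rose by 0.37 (adjusted p = 0.0158; lost with quantile normalization, adjusted p = 0.102). The other tested NFKB1 probe was at 0.14 (adjusted p = 0.363). PRDM1, a repressor in lymphocytes and epithelia, fell by 0.70 (adjusted p = 0.0145), while its other tested probes were at -0.26, -0.18 and -0.05 (adjusted p = 0.414, 0.532 and 0.872). IRF1 and RFX5, which drive class I promoters, were at -0.49 and -0.09 (adjusted p = 0.141 and 0.687).

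Of 10 tested interferon ligands, receptors and kinases, 1 rose and 2 fell, with a median of 0.10. IFNGR1, a chain of the interferon gamma receptor, rose by 0.51 ± 0.08 on the log2 scale (limma, adjusted p = 0.00271) at 1 of its 3 probes, the only one above 0. The receptor kinases JAK2 and TYK2 fell by 0.46 and 0.33 (adjusted p = 0.0138 and 0.0213), and the TYK2 call was lost without subfertile cow 2 or 5 (0.0516 and 0.0528). JAK2 was at -0.25 with normexp background correction (adjusted p = 0.0541). IFNG was dim, well above background in 4 of 6 fertile and 1 of 5 subfertile cows, with a difference of 0.02 ± 0.45 (adjusted p = 0.980). Of 21 interferon-stimulated genes outside the pathway, 1 rose and 2 fell, with a median of -0.04: the antiviral gene RSAD2 and the interferon-response brake USP18 fell by 0.73 and 0.65 (adjusted p = 0.00979 and 0.0218), and XAF1, an antagonist of the apoptosis inhibitor XIAP, rose by 0.75 (adjusted p = 0.0203). The USP18 call was lost without subfertile cow 2 (adjusted p = 0.0583), and the other USP18 probe was at -0.01 (limma, adjusted p = 0.977). With normexp background correction RSAD2 was at -0.17 (adjusted p = 0.205) and USP18 at -0.32 (adjusted p = 0.0827), so both calls ended.

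Of 8 tested class I-like and non-classical genes, 0 rose and 1 fell, the endothelial protein C receptor PROCR, by 1.09 on the log2 scale (limma, adjusted p = 0.0383), with a median of 0.32 over the 8. Of 9 tested receptors and killer-cell effectors, PRF1, the pore-forming protein perforin, rose by 0.94 (adjusted p = 0.0155) and the inhibitory receptor PDCD1 fell by 0.66 (adjusted p = 0.0281) while its other probe was at 0.14 (adjusted p = 0.681), with a median of 0.02 over the 9. The other PRF1 probes were at 0.77 and 0.18 (limma, adjusted p = 0.0732 and 0.596). The call of PROCR was lost without fertile cow 1, 2, 3 or 4 or subfertile cow 1, 2, 3 or 5 (adjusted p = 0.0560 to 0.0858), and that of PDCD1 without fertile cow 1, 3 or 4 or subfertile cow 2, 4 or 5 (0.0520 to 0.0680). CD8A, the T cell co-receptor for class I, was at 0.36 (adjusted p = 0.265).

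Markers of the cell types in a biopsy were read beside these values. Of 11 epithelial markers 6 rose and 0 fell, with a median of 0.54 on the log2 scale, and their mean level was 0.95 to 1.76 in fertile and 1.75 to 2.18 in subfertile cows; with quantile normalization 1 rose. Without fertile cow 1 or subfertile cow 1, 2 or 5 only 1 of the 11 passed, and without fertile cow 3 or 5 the count was 2 or 3. By probe, KRT8 passed at 1 of 4 and EPCAM at 1 of 2, against 3 of 3 for KRT18, 3 of 4 for ELF3 and 2 of 2 for CLDN3. Of 15 tested leukocyte markers 1 rose, CD79A of B cells, by 1.43 ± 0.25 (SE; limma, adjusted p = 0.00317), and 1 fell, the common leukocyte antigen PTPRC, by 0.95 (adjusted p = 0.00931), with mean levels of -1.98 to -1.35 in fertile and -1.86 to -1.51 in subfertile cows. The other tested PTPRC probe was at -0.04 (limma, adjusted p = 0.909). Of 11 stromal markers 2 rose and 1 fell (1 call in all without subfertile cow 2 or 5), with mean levels of 3.18 to 3.45 and 2.80 to 3.34. Of the 10 tested probes of COL3A1, a stromal collagen counted as a rise, 4 were called, 2 higher (0.53 and 0.70) and 2 lower (-0.40 at both; adjusted p = 0.0484 and 0.0331). DCN, the other rise, passed at 1 of its 9 tested probes. Its call was lost without any 1 of 9 cows (limma, adjusted p = 0.0521 to 0.0964). Of 8 tested endothelial markers 2 rose, with mean levels of -1.29 to -0.76 and -1.10 to -0.29. All tested epithelial, stromal and endothelial markers and 13 of the 15 leukocyte markers were well above background on all arrays. The part of cell makeup in the differences of the class I genes was not tested.

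The genes most like TAP1 and B2M across the 11 arrays, after the mean of each group was taken out and by the brightest probe of each, were found by a rule. For TAP1 at base 1779 they included PCDHGA2 (Pearson r = 0.87), ARV1 (0.86), TC350446 (0.86) and RBM20 (0.85). For B2M at base 951 they were CRYGA (0.90), TC304683 (0.89), CLEC6A (0.89), FMO1 (0.89) and ENSBTAT00000016359 (0.88). None of those named is a gene of the class I pathway lists, and without the 2 cows farthest from the median of B2M the correlations ran from 0.58 for CRYGA to 0.83 for ENSBTAT00000016359. They describe arrays that share labelling and brightness and carry no p.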

How the data were processed

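Total RNA of 11 endometrial biopsies was labelled with Cy3 and hybridised to 1-colour Agilent bovine arrays, per the labels' protocols. The deposited scanner files give the linear intensity of 45220 spots each; the submitters' processing notes name Agilent Feature Extraction, version 10.5.1.1. A table of log2 values that the authors deposited beside them was centred on the median of each probe with column medians of -0.08 to 0.09; relative to fertile cow 2, its values for fertile cow 1 lay within 0.01 of the scanner file at 17.0% of probes, so the scanner files were used and the table served as an alternative. In the file of fertile cow 6 only 3 gene names matched the other files, so names came from the other 10 files by probe. The headers of 10 arrays gave their slide and scan day. The array of fertile cow 6 had no header and was given a slide and a scan day of its own in the block fits.

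Control spots and 1 to 156 outlier spots an array were left out; 0 other spots were saturated. Processed signals were taken to log2, minus the 75th percentile of non-control spots, and averaged over the spots of a probe. The 31877 probes that were well above background on at least 5 of 11 arrays entered the fit (lmFit, then eBayes, in limma 3.58.1 under R 4.3.3, with the fertility group as its only term), and p-values were adjusted over all of them by Benjamini and Hochberg, with a threshold of 0.05. Other genes were named through RefSeq accessions with a table of ARS-UCD2.0, from which no coordinate was taken; coordinates and probe sequences are those of the array annotation. Probe sequences were compared where they shared at least 16 bases in a row. Of 43653 probes, 20595 were named by accession, 10745 by symbol, 376 by an older symbol and 11937 by the name in the files.

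The members and the gene lists were chosen with earlier results of these data known. The genes named are every probe of the 10 genes; in each list up to 4 called genes with the smallest p, or the 2 with the smallest p where none was called; IRF1, RFX5, IFNG, PSMB5, PSMB6, PSMB7, PSMB10, ERAP1, PTPRC and CD8A; and the 5 genes most like TAP1 and the 5 most like B2M; 2 genes that this rule names are not reported here. A planned search for promoter motifs was not run. Tested on simulated data of 31641 probes, the fit recovered 64% of 100 probes changed by 1 and 89% of 100 changed by 2 on the log2 scale, with 4 false calls. The simulated arrays were independent and held no effect of slide or scan day, so that count does not measure false calls on the real arrays. Alternatives were normexp background correction (offset 50), quantile normalization, median centring, the authors' log2 table, other filters, blocks for slide, day of scanning or replicate number, a trended robust variance and leaving out each cow; for the lists, leaving out each cow and the day of scanning were added after the data were seen. The number of arrays limits the precision.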

Additional observations from a re-analysis of the deposited data

Results flagged for a closer look

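Of 66 sets of values, 1 for each of the 33 probes and each group, 7 held a cow that stood apart from the others by Dixon's test, which flags about 1 in 20 sets by chance. The probes overlap in sequence, so these are not independent. Subfertile cow 1 was low at the BOLA probes of base 939 (3.12 on the log2 scale), base 1311 (2.59) and base 1327 (2.99) and at BOLA-NC1 base 1210 (0.94). Fertile cow 6 was the highest fertile cow at that BOLA-NC1 probe (6.31), and fertile cow 3 was low at JSP.1 base 1316 (-5.84). Subfertile cow 4 was high at the dim B2M-like probe of base 409 (-5.41), which was not well above background in any subfertile cow. The cause of these values was not tested. Subfertile cows 3 and 5, low at JSP.1 bases 981 and 1316, are a pair, which Dixon's test for a single value does not mark.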

How the results depend on the processing

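Arrays of 6 against 5 cows, a weaker signal on the subfertile arrays and slides and days that each hold 1 group limit every difference. The calls over all probes (7090) numbered 17082 with normexp background correction, 12240 with no filter on dim probes, 3686 when slide and 959 when scan day was the random block (consensus correlations 0.448 and 0.315), and 4527 to 7310 on leaving out each cow. The 4 calls among the class I genes became 10 with normexp, 0 with scan day (limma; 4 at an unadjusted p below 0.05) and 4 to 8 without a cow, with 8 only without subfertile cow 1. The median difference over all probes was 0.33 with normexp (87.3% of calls higher), -0.01 with quantile normalization (50.8%), -0.02 with median centring (48.6%) and 0.07 as reported (66.7%).

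Replicate numbers did not pair the cows: the correlations of same-numbered cows were -0.208, 0.169, 0.217, -0.039 and -0.165, and 1 of 5 subfertile cows correlated best with its own number. With the replicate number as a block 4747 probes were called, 2 of them among the class I genes. Differences that changed sign with that block were 0.57 for JSP.1 base 981 and -0.0097 for PSMB8 base 949.

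Of the other differences that changed sign, on the log2 scale, TAP2 base 746 passed the test (0.58 with normexp; limma, adjusted p = 0.0292) and the others did not. With normexp they were B2M base 447 (-0.063), JSP.1 base 981 (0.51), TAPBP (0.098) and PSMB8 base 949 (-0.089). With quantile normalization they were B2M bases 447 (-0.31), 533 (-0.28), 620 (-0.175) and 951 (-0.029), PSMB8 base 949 (-0.041), PSMB9 base 684 (-0.052), COL3A1 (-0.24), DCN (-0.34), VIM (-0.32) and IFNG (-0.13). With median centring they were B2M base 447 (-0.083), PSMB8 bases 757 (-0.029) and 949 (-0.077), PSMB9 base 684 (-0.022) and IFNG (-0.070). With slide as a block they were B2M base 447 (-0.071), JSP.1 base 981 (0.083), TAPBP (0.0185), PSMB8 base 949 (-0.029) and IFNG (-0.064). With scan day they were B2M base 447 (-0.016) and TAPBP (0.012), and with the authors' table TAPBP (0.0025).

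Leaving out each cow gave ranges across 0 for B2M base 447 (-0.12 to 0.15), BOLA bases 261 (-0.11 to 0.42), 1311 (-0.56 to 0.76) and 1327 (-0.63 to 0.64), BOLA-NC1 base 1210 (-1.11 to 0.29), JSP.1 base 981 (-1.34 to 1.1), TAP2 base 746 (-0.33 to 0.033), TAPBP (-0.058 to 0.072), PSMB8 bases 757 (-0.0645 to 0.19) and 949 (-0.071 to 0.11), PSMB9 bases 674 (-0.11 to 0.16) and 684 (-0.020 to 0.23), IFNG (-0.29 to 0.26) and RFX5 (-0.17 to 0.0024).

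Among the pairs, normexp gave -0.25 for PSMB8 minus PSMB5 (exact permutation, adjusted p = 0.0397) and 0.50 for B2M minus TAPBP (0.0812). Quantile normalization gave -0.47 for PSMB10 minus PSMB7 (adjusted p = 0.195, exact) and -0.0024 for B2M minus TAPBP. The mean of all probes gave -0.92 for PSMB9 minus PSMB6 (0.0108), -0.49 for PSMB10 minus PSMB7, 0.53 for TAP1 minus TAP2 and 0.27 for B2M minus TAPBP. Leaving out a cow gave -0.24 to -0.10, -0.89 to -0.57, 1.0 to 1.31 and 0.51 to 0.83 for PSMB8 minus PSMB5, PSMB10 minus PSMB7, TAP1 minus TAP2 and B2M minus TAPBP.

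Calls in the lists moved as follows. With normexp they numbered 1 in the immunoproteasome, 5 in interferon ligands and receptors, 5 in class I-like genes, 5 in receptors and effectors, 9 in interferon-stimulated genes, 8 in leukocyte and 6 in stromal markers. With slide as a block they numbered 1 in loading and trimming, 1 in epithelial and 1 in stromal markers, and 0 in class I-like genes, receptors and interferon-stimulated genes. With quantile normalization 0 of the constitutive proteasome counterparts and 1 epithelial marker passed. Leaving out a cow, chosen after seeing the data, gave 0 to 1 calls in the immunoproteasome, 1 to 2 in its counterparts, 0 to 1 in class I-like genes, 1 to 2 in receptors and effectors, 2 to 4 in loading and trimming, 2 to 4 in interferon ligands and receptors, 2 to 4 in interferon-stimulated genes, 1 to 6 in epithelial and 1 to 4 in stromal markers. With scan day as a random block, also chosen after seeing the data, 1 gene was called in each of the interferon ligands and receptors, the leukocyte and the epithelial markers and 0 in every other list (limma; 31 of 136 tested genes over all lists at an unadjusted p below 0.05). Except where an alternative's construction changes what is tested, the cause was not tested.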

Other observations

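Outside the 10 names, 13 tested probes of related class I genes shared sequence with the heavy-chain probes. They overlap each other and the probes described above, so they are no independent support. Of their differences 11 were above 0 and 2 below, from -0.54 to 1.61 on the log2 scale. The test called 0 of the 13 (limma, adjusted p = 0.104 to 0.924), where 22.2% of all tested probes were called. At an unadjusted p below 0.05 there were 2, and the share of all probes at that level was not counted. Subfertile cow 1 had the lowest level of all 11 cows at 8 of the 13 and at 9.11% of all tested probes. A probe of LOC507917 that shares 58 of 60 aligned bases with BOLA base 1048 read 4.15, 5.62, 4.82, 5.88 and 5.46 in subfertile cows 1 to 5 and 4.37 to 5.03 in fertile cows.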
